A study of Junco hyemalis with 13 samples.

Results

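Immediate early genes are the first genes that a cell transcribes after a stimulus, without waiting for new protein. In neurons they are switched on within minutes by synaptic activity, calcium entry and growth factor signalling, and in songbirds EGR1 (also called ZENK) and ARC are widely used as markers of recently active cells. Some genes of this class, among them GADD45B and CEBPB, are also known to respond to stress hormones, inflammation and metabolic state. The data here describe 6 such genes in the hypothalamus of wild-caught birds: EGR1 (NP_001074426.1), ARC (XP_002186861.1), CSRNP1 (XP_002186683.1), CEBPB (XP_002187599.1), GADD45B (NP_001232238.1) and BTG1 (XP_002186837.1). They were picked by name, from the symbols that the study's supplementary table pairs with row identifiers, out of 11454 annotated elements with at least 1 count. All 6 matched exactly 1 element and all 6 were abundant enough to be tested, among 9938 elements that reached 5 counts in at least 6 libraries. The identifiers are those of homologous zebra finch proteins.

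The birds were free-living male dark-eyed juncos caught on their shared wintering ground in March 2017, when the populations begin to diverge in reproductive timing. The 7 residents stay and breed locally, and the 6 migrants leave to breed at higher latitude. Neither population received an experimental treatment. Every bird was caught in a mist net, had blood drawn from a wing vein and was killed with isoflurane within minutes of capture. Each library was made from the punched hypothalamus of 1 bird, and expression was computed as CPM, counts divided by the library total and put on a common scale, with TMM factors, which scale each library to a common effective size. The data give a single moment in each bird, with no unstimulated baseline, and the bulk tissue cannot separate a change in RNA per cell from a change in the number of cells.

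Total counts ran from 4308064 to 5469786 in residents and from 4319503 to 5826833 in migrants. The 5 hypothalamic peptide genes examined (NPVF, GNRH1, CRH, NTS and PENK) were counted in every library, as were the markers examined for neurons, oligodendrocytes, microglia, endothelium, ependyma and blood, with at least 15 counts each. Of these 20 markers 7 had an unadjusted p under 0.05 (edgeR), where 4.45% of all elements did, and 0 passed after adjustment in this fit. The paper, with DESeq2, reports GNRH1 as differentially expressed and higher in residents. Elements with a low p more often carried a symbol and could be named as markers. The marker count can therefore not be judged against that share. By estimate HBAA and HBAD were lower in residents (log2 fold changes of -0.59 and -0.53) and GNRH1, RSPH4A, MMRN2, OMG and GAP43 higher. The lists of ependyma and neurons held both signs, with log2 fold changes from -0.11 to 0.89 and from -0.10 to 0.29. In the other lists of these genes all estimates within a list had the same sign. They ran from 0.01 to 1.25 for the peptide genes and from 0.20 to 0.51 for endothelium. Both oligodendrocyte markers had 0.34, and both blood markers were negative. The part of these markers in the results was not tested. The summed level of each cell type overlapped between the populations, with blood (HBAA and HBAD) at 3496 to 10384 CPM in residents and 4782 to 12701 CPM in migrants. Resident replicate 4 and migrant replicate 1 stood apart from the other libraries on the first principal component, at scores of 42.7 and 49.2 where the remaining 11 lay between -21.5 and 2.32. These same libraries had the smallest TMM factors, 0.897 and 0.905.

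None of the 6 genes differed between residents and migrants by edgeR's quasi-likelihood test, with an adjusted p of 0.996 for each. That is also the background: 0% of the 9938 elements passed an adjusted p of 0.05, and 4.45% had an unadjusted p under 0.05, a group that held 0 of the 6 genes. DESeq2, the tool of the study, called 3 elements and edgeR's likelihood ratio test called 3, and none of these was among the 6 genes. The log2 fold changes, resident minus migrant, were positive for 5 genes and negative for BTG1, although those of ARC and GADD45B turned negative without the libraries that stood apart (-0.11 and -0.05). The median was 0.17 beside 0.00 over all elements tested, but without both of those libraries the median of the 6 was -0.02, with 3 positive, and without resident replicate 4 alone it was 0.03 (alternatives added after the data were seen). The populations overlapped for all 6 genes, where 0.131% of elements showed no overlap. These p-values set the difference between the populations against the spread among birds of the same population. The labels do not say how the birds were spread over capture times, which the test does not take into account.

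EGR1 encodes a zinc finger transcription factor and was the most strongly varying of the set by its estimated dispersion. Its level was lowest at 48.5 CPM, with a median of 60.6 and a highest value of 144.2 CPM, in residents, against a lowest of 35.1, a median of 43.1 and a highest of 123.0 CPM in migrants. The levels left a gap in each population. Residents 2, 4 and 6 lay at 106.4 to 144.2 CPM while the other 4 residents reached no more than 60.6 CPM, and migrants 2 and 3 lay at 82.8 and 123.0 CPM while the other 4 migrants reached no more than 44.0 CPM. High birds were thus present in both populations, and the populations overlapped broadly. The mean was 82.6 ± 37.8 CPM (SD, n = 7) in residents and 60.6 ± 35.3 CPM (SD, n = 6) in migrants, a log2 fold change of 0.44 (standard error 0.32; 95% interval -0.23 to 1.11). Without both libraries that stood apart the estimate was 0.16.

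ARC encodes a cytoskeleton-associated protein that acts at synapses, where it promotes the internalisation of AMPA-type glutamate receptors. In residents it was nearly level, with 18.6 CPM in the lowest bird, a median of 22.0 and 25.9 CPM in the highest. In migrants the lowest bird had 9.39 CPM, the median was 21.0 and the highest bird had 32.8 CPM. The migrants enclosed the whole range of the residents: migrants 2 and 3 lay above every resident and migrants 1 and 4 below every resident. The means were almost the same, 22.0 ± 2.73 CPM (SD, n = 7) in residents and 21.0 ± 8.87 CPM (SD, n = 6) in migrants, with a log2 fold change of 0.05 (standard error 0.22; 95% interval -0.42 to 0.52).

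CSRNP1, a nuclear protein known as an early target of axin signalling, had a lowest, median and highest level of 20.2, 26.3 and 38.8 CPM in residents and of 17.5, 23.3 and 35.9 CPM in migrants. Its log2 fold change was 0.14 (standard error 0.19). CEBPB, a leucine zipper transcription factor of inflammatory and metabolic genes, had 5.04, 9.10 and 15.02 CPM in residents and 4.35, 8.20 and 9.90 CPM in migrants, a log2 fold change of 0.21 (standard error 0.24). It rested on the fewest reads of the 6, with 27 to 58 counts per resident and 18 to 48 per migrant. For both genes the highest resident was replicate 4, and every other resident lay within the range of the migrants. Without replicate 4 the log2 fold change of CSRNP1 was 0.03 and that of CEBPB 0.05, and without both libraries that stood apart they were 0.00551 and 0.06.

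GADD45B, a growth arrest and DNA damage gene that is also induced by neuronal activity and is linked to DNA demethylation, had a lowest, median and highest level of 8.12, 11.8 and 34.2 CPM in residents and of 7.79, 12.3 and 18.5 CPM in migrants. Resident replicate 4, at 34.2 CPM, was well over the next resident, replicate 6 at 13.4 CPM, and over every migrant. The log2 fold change was 0.23 (standard error 0.30) and turned to -0.05 without both libraries that stood apart. Leaving out single birds gave -0.13 to 0.38, so no direction can be given for GADD45B. BTG1, an anti-proliferative protein that binds the mRNA deadenylation machinery, had 161.6, 204.2 and 246.3 CPM in residents and 197.3, 214.3 and 297.2 CPM in migrants. It had the smallest dispersion of the set over both populations, although ARC was steadier in residents, and it was the only 1 with a negative log2 fold change, -0.20 (standard error 0.13; 95% interval -0.47 to 0.07), which did not pass. Its highest value was in migrant replicate 1, the migrant library that stood apart.

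**Figure D1:**
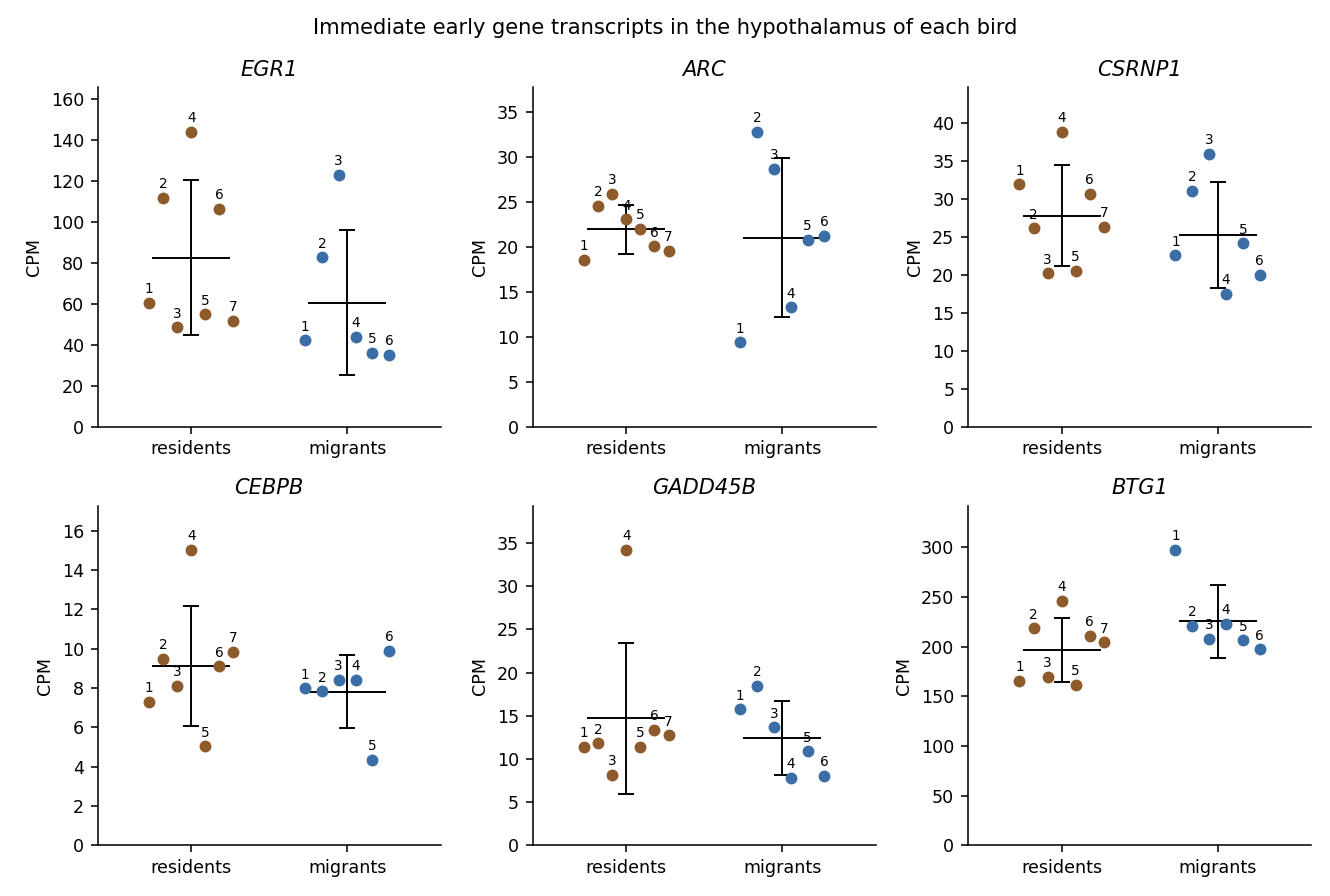
CPM of the 6 genes in each bird (points, with the replicate number beside them), residents left and migrants right, with the mean as a long bar and the SD as whiskers; each vertical axis starts at 0. EGR1 leaves a gap between high and low birds in both populations, ARC is narrow in residents and wide in migrants, and resident replicate 4 is highest among residents for every gene except ARC.

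**Figure D2:**
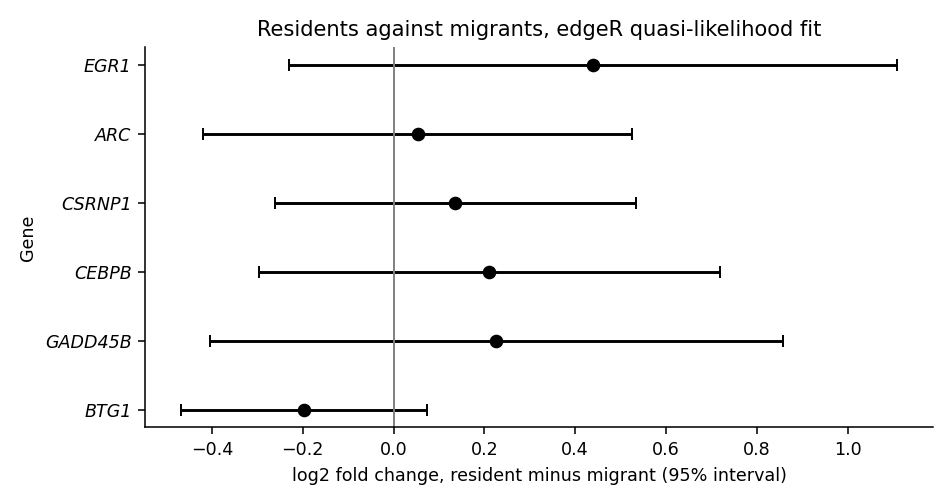
Log2 fold change of each gene, resident minus migrant, with its 95% interval from edgeR's quasi-likelihood fit (7 residents, 6 migrants). Every interval includes 0, and BTG1 alone has an estimate below it.

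The spread from bird to bird was then described for each gene. For EGR1 the coefficient of variation (SD over mean CPM) was 45.8% among residents and 58.4% among migrants, of which counting error by itself would give 5.02% and 5.72%. GADD45B had 59.4% in residents and 34.6% in migrants, and CEBPB 33.6% in residents and 23.7% in migrants. Over all elements tested the median coefficient of variation was 21.6% in residents and 21.9% in migrants, and EGR1 varied more than 89.3% of elements in residents and 94.3% in migrants. CSRNP1, at 23.8% in residents and 27.7% in migrants, lay near those medians. BTG1 lay below them, at 16.3% in residents and 16.2% in migrants. The dispersion that edgeR estimated over both populations, as a biological coefficient of variation, was 0.394 for EGR1 and 0.362 for GADD45B, where the trend for genes of the same abundance was 0.200 and 0.267. For ARC, CSRNP1, CEBPB and BTG1 it was 0.274, 0.233, 0.268 and 0.173, against trends of 0.237, 0.227, 0.300 and 0.198. EGR1 lay furthest above its trend. The spread of GADD45B in residents came from replicate 4, since without that bird its coefficient of variation was 15.8% (n = 6), whereas that of EGR1 was 39.9%.

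ARC had the sharpest contrast in spread. Its coefficient of variation was 12.4% in residents, little above the 9.62% that counting gives, and 42.2% in migrants, where counting gives 9.75%. The mean absolute deviation from the population median, on the log2(CPM + 1) scale, was 0.138 in residents and 0.465 in migrants, a difference of -0.33. By exact two-sided permutation of the deviations over all divisions of the birds into groups of 7 and 6, p was 0.0536, and the adjusted p over all elements tested was 1.00. The permutation p was 0.0204 for the difference in standard deviation and 0.0126 without migrant replicate 5 or 6, which lay close to the median. Leaving out a bird close to the median widens its population, so the p of 0.0126 does not test a difference in spread. Without both libraries that stood apart, however, the difference was -0.19 (exact permutation p = 0.195), and without migrant replicate 1, the bird with the lowest ARC, it was -0.20 (p = 0.130). Of all elements, 2.32% had an unadjusted p under 0.05 by this test, in either direction, and 0% passed after adjustment. None of the 6 genes had an unadjusted p under 0.05.

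For the other genes the difference in spread was within what the permutation allows. The mean absolute deviation was larger in residents by 0.01 for EGR1 (exact permutation p = 0.968), 0.09 for CEBPB (p = 0.647) and 0.06 for BTG1 (p = 0.509). It was smaller in residents by estimate for CSRNP1, at -0.03 (exact permutation p = 0.770), and for GADD45B, at -0.06 (p = 0.862), although GADD45B had the larger coefficient of variation in residents. That larger value came from resident replicate 4: without it the GADD45B difference was -0.25 (exact permutation p = 0.0433), with residents the narrower group, and without both libraries that stood apart it was -0.23 (p = 0.110). BTG1 was wider in residents by 0.12 without both libraries that stood apart (exact permutation p = 0.00216, not adjusted and the smallest that these 11 birds can give). Resident replicate 4 had the highest GADD45B and BTG1 of the residents, and migrant replicate 1 the highest BTG1 of the migrants. Leaving out the extreme bird of a population narrows that population, so the p-values without these birds do not test a difference in spread. Over the 6 genes the median difference was -0.01, beside -0.00332 over all elements tested.

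**Figure D3:**
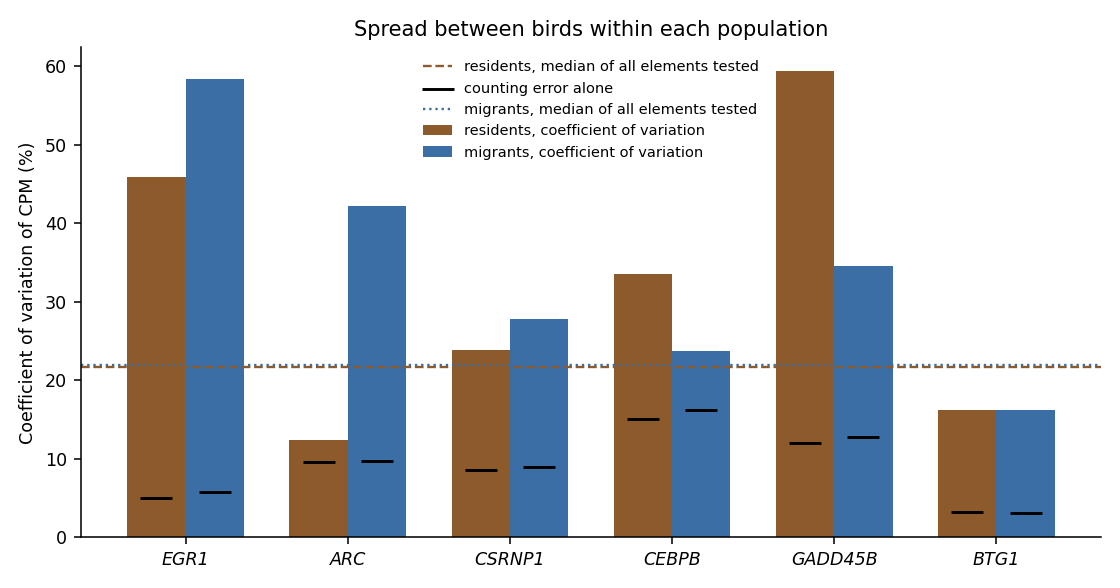
Coefficient of variation of CPM between birds in residents (left bar of each pair) and migrants (right bar), with a short black line at the value that counting error alone would give and horizontal lines at the median of all 9938 elements tested in each population. EGR1 is high in both populations, ARC is high only in the migrant bar, and BTG1 is below the medians in both.

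Whether the genes were high together in the same birds was examined bird by bird. For no bird was the share of all elements above the median, highest or lowest computed. The counts of genes below can therefore not be read as particular to the 6 genes. Resident replicate 4 was above the resident median for all 6 genes and was the highest resident for 5 of them, the exception being ARC. Its TMM factor, 0.897, was the smallest of the residents and raised its CPM. Its place above the ARC median (23.0 against 22.0 CPM) depends on that scaling, which also widened its lead for CSRNP1 and BTG1. Resident replicate 5 was above the median for 0 of the 6 and was lowest for CEBPB and BTG1, and replicate 3 was lowest for EGR1, CSRNP1 and GADD45B but highest for ARC. Residents 2 and 6, the other birds with high EGR1, were each above the median for 4 genes. Their GADD45B levels were 11.8 CPM, the resident median, and 13.4 CPM, the next after replicate 4 at 34.2 CPM. In migrants, replicates 2 and 3 were each above the median for 5 genes, replicate 2 being highest for ARC and GADD45B and replicate 3 for EGR1 and CSRNP1. Migrant replicate 1 combined the lowest ARC with the highest BTG1 and the next-to-highest GADD45B. A high EGR1 level therefore came with high CSRNP1 and ARC in migrants 2 and 3, which ranked 1 and 3 among migrants for GADD45B. In resident 4 it came with high GADD45B, CEBPB, CSRNP1 and BTG1. This did not hold for CSRNP1 in every resident with high EGR1. Resident 6 ranked 3 among residents for CSRNP1 (30.6 CPM), but resident 2 ranked 5 (26.1 CPM), below the median. Resident 1, with low EGR1, ranked 2 (31.9 CPM). With TMM factors, residents 4, 2 and 6 had the 3 highest BTG1 levels among residents, at 246.3, 218.5 and 211.0 CPM. Migrants 2 and 3 ranked 3 and 4 among migrants for BTG1.

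**Figure D4:**
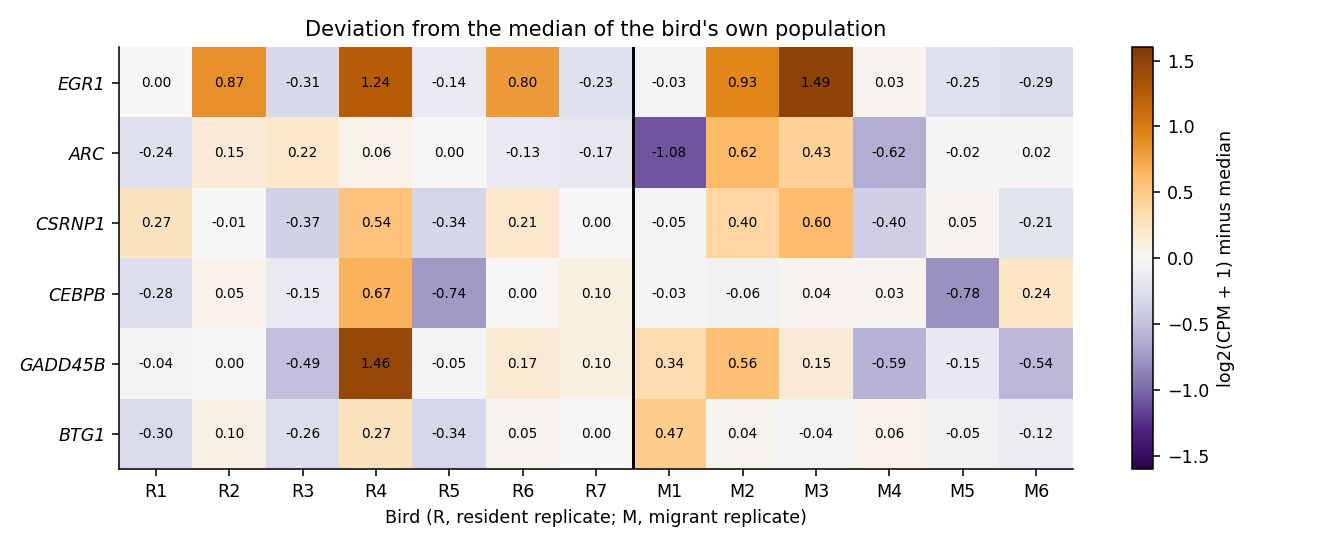
Difference of log2(CPM + 1) from the median of the bird's own population for the 6 genes (rows) in 7 residents (R1 to R7) and 6 migrants (M1 to M6); orange is above the median and purple below it. R4 is above the median in every row, although for ARC only slightly and depending on the TMM factors. M2 and M3 are high for EGR1, ARC and CSRNP1, and M1 is furthest below the median for ARC.

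Correlations across birds were computed for the 15 pairs of genes within each population, 30 relations in all, on log2(CPM + 1). In residents 13 of 15 pairs were positive with a median Pearson r of 0.72, and in migrants 9 of 15 with a median of 0.23. The median over all pairs of elements tested was close to 0 in each population (-0.0012 in residents, -0.0031 in migrants). A Pearson r of at least 0.8 was found for 3 pairs in residents and 1 in migrants, where 3.32% of all pairs reached it in residents and 5.05% in migrants. The resident pattern leaned on 1 bird, since without replicate 4 the median over the 15 pairs was 0.42. With library totals alone in place of TMM factors it was 0.58 in residents and 0.39 in migrants, and 10 pairs were positive in residents and 14 in migrants, so which population had more positive pairs depends on the scaling. The number of pairs at 0.8 or more in residents was 1 without replicate 4 and 0 with library totals alone, and in migrants it was 4 without replicate 1. For the settings with a bird left out or with library totals, the share and the median over all pairs of elements were not computed. The counts and medians in those settings thus have no background, and they do not rank the populations.

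In residents the strongest relation was between CEBPB and BTG1, at a Pearson r of 0.90 (exact permutation p = 0.000992, adjusted p = 0.0298 over the 30 relations) and a Spearman's rho of 0.89 (exact permutation p = 0.0123, adjusted p = 0.360). Without the pair of birds farthest from the CEBPB median r was 0.91 (exact permutation p = 0.0417), without replicate 4 it was 0.82 (p = 0.0236) and with library totals alone 0.79 (p = 0.0123). These p-values are larger and were not adjusted, so the adjusted call is not shown to hold in these settings. In migrants the same genes had r = 0.08 (exact permutation p = 0.815). The coefficient of variation of CEBPB was 23.7% in migrants, where counting gives 16.2%, and 33.6% in residents, where counting gives 15.1%. The difference in r between the populations did not pass its own test (difference in Fisher z 1.38, exact permutation p = 0.0705, adjusted p = 0.437 over 15 pairs). No other relation passed after adjustment.

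CSRNP1 and GADD45B were positively related in both populations. Their r was 0.80 in residents (exact permutation p = 0.00933, adjusted p = 0.101; rho 0.79, p = 0.0480, adjusted p = 0.360) and 0.74 in migrants (exact permutation p = 0.0972, adjusted p = 0.243; rho 0.71, p = 0.136, adjusted p = 0.510). Without the pair of birds farthest from the CSRNP1 median it was 0.40 in residents and 0.80 in migrants, and without resident replicate 4 it was 0.67 in residents (exact permutation p = 0.110). EGR1 and CSRNP1 had r = 0.72 in residents (exact permutation p = 0.0853, adjusted p = 0.233; rho 0.68, p = 0.110, adjusted p = 0.469) and 0.87 in migrants (exact permutation p = 0.0319, adjusted p = 0.190; rho 0.60, p = 0.242, adjusted p = 0.648). Without the pair farthest from the EGR1 median r was 0.63 in residents and -0.45 in migrants, so the migrant relation rests on replicates 2 and 3. Relations with EGR1 largely set its high birds against the rest, and each of these sets holds fewer than 6 birds.

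EGR1 and GADD45B had r = 0.74 in residents (exact permutation p = 0.0101, adjusted p = 0.101; rho 0.71, p = 0.0881, adjusted p = 0.440), but r = 0.53 (exact permutation p = 0.282) without replicate 4. In migrants their r was 0.58 (exact permutation p = 0.221, adjusted p = 0.414; rho 0.43, p = 0.419, adjusted p = 0.662). EGR1 and BTG1 had r = 0.84 in residents (exact permutation p = 0.0381, adjusted p = 0.190; rho 0.71, p = 0.0881, adjusted p = 0.440), and -0.13 in migrants (exact permutation p = 0.865). GADD45B and BTG1 had r = 0.75 in residents (exact permutation p = 0.0161, adjusted p = 0.121; rho 0.79, p = 0.0480, adjusted p = 0.360) and 0.46 in migrants (exact permutation p = 0.414, adjusted p = 0.690). Without the pair of birds farthest from the median of the first gene, the resident values were 0.61, 0.58 and 0.70 in the order given. Without replicate 4 the resident r of EGR1 and BTG1 was 0.73 (exact permutation p = 0.132) and that of GADD45B and BTG1 0.56 (p = 0.224). None of these differences between populations passed its own test (smallest adjusted p of 0.437 over 15 pairs, exact permutation).

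In residents the pairs with ARC had lower r than the others. The spread of ARC there was little above counting error (12.4% against 9.62%), and the part of counting error in its r was not tested. The 5 pairs with ARC had r from -0.40 to 0.16, while the 10 pairs without ARC had r from 0.67 to 0.90. Without replicate 4 the pairs with ARC ran from -0.73 to 0.04 and those without it from 0.21 to 0.82. With library totals alone the pairs with ARC ran from -0.91 to -0.37 and those without it from 0.52 to 0.79. This split was noticed after the values were seen and was not tested as such. In migrants, ARC had r = 0.62 with EGR1 (exact permutation p = 0.183, adjusted p = 0.367; rho 0.43, p = 0.419, adjusted p = 0.662), 0.70 with CSRNP1 (exact permutation p = 0.122, adjusted p = 0.262; rho 0.66, p = 0.175, adjusted p = 0.583) and -0.74 with BTG1 (exact permutation p = 0.0806, adjusted p = 0.233; rho -0.49, p = 0.356, adjusted p = 0.662). None passed. The value with BTG1 was 0.84 (exact permutation p = 0.125) in the few migrants left without the pair farthest from the ARC median. Its negative sign thus depended on that pair, and no direction can be given. The ARC and CSRNP1 relation had the smallest p for a difference between the populations (r = -0.40 in residents, 0.70 in migrants; exact permutation p = 0.0519, adjusted p = 0.437).

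**Figure D5:**
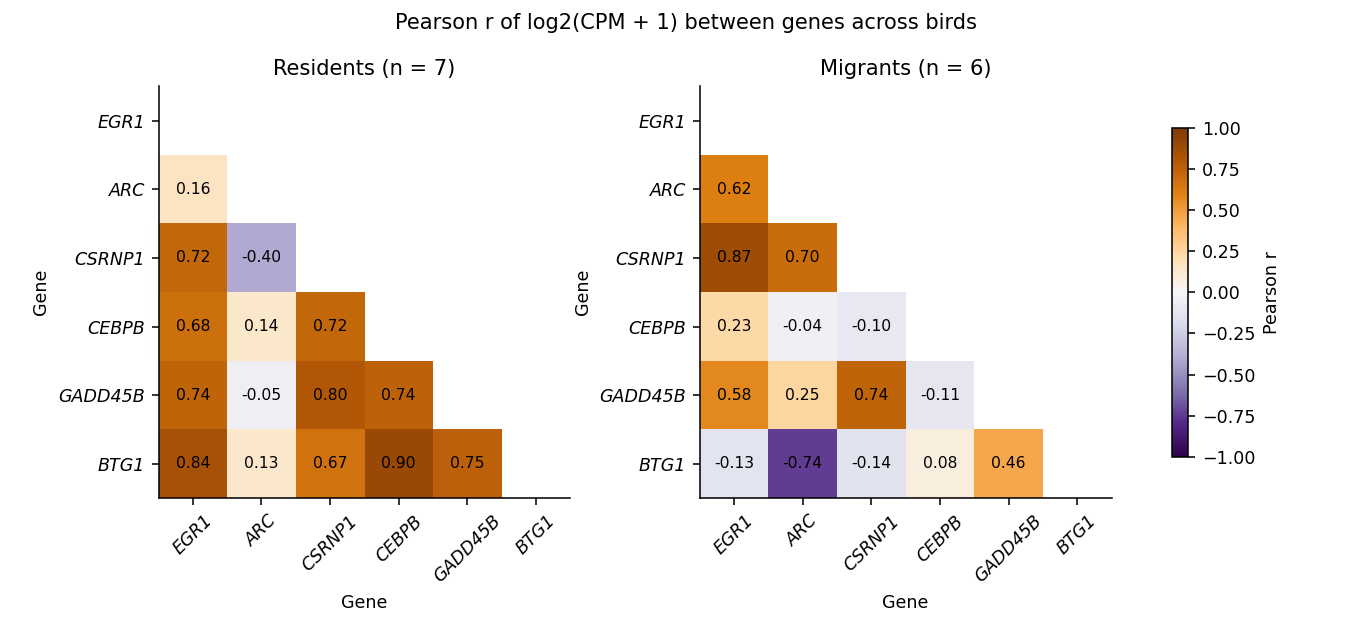
Pearson r of log2(CPM + 1) between each pair of genes across the birds of 1 population, residents left (n = 7) and migrants right (n = 6). In residents every pair without ARC lies between 0.67 and 0.90, and in migrants the highest value is 0.87 for EGR1 and CSRNP1 and the lowest -0.74 for ARC and BTG1.

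Taking both populations after each bird's value was centred on its population mean gave 13 birds for each pair, a choice made after the data were seen. The median r was 0.44 over the 15 pairs, with 14 positive, beside -0.0031 over all pairs of elements. None of the 15 pairs reached 0.8, where 0.982% of all pairs did. EGR1 and CSRNP1 had r = 0.80 (permutation p = 0.00294, adjusted p = 0.0220 over the 15 pairs) and CSRNP1 and GADD45B r = 0.76 (permutation p = 0.00266, adjusted p = 0.0220). With ranks within each population in place of values, these were 0.65 (permutation p = 0.0301, adjusted p = 0.145) and 0.76 (permutation p = 0.00732, adjusted p = 0.110), so the calls depend on the use of values. Without the pair of birds farthest from the median they were 0.60 and 0.76, and without resident replicate 4 they were 0.75 and 0.71. Leaving out any 1 bird kept r between 0.72 and 0.86 for the first and between 0.71 and 0.82 for the second.

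The 1120 other tested elements with a symbol were ranked by their centred Pearson r with each gene over the 13 birds. They are not a neutral sample of the elements tested, since those with a low p between the populations more often carried a symbol. The nearest to EGR1 were SLC7A4 (0.92), AHSA2 (0.90) and SLITRK1 (0.88). SLC7A4 was also nearest to CSRNP1 (0.83), followed by LOC100190249 (0.82) and RSPO3 (0.81). PAOX, which encodes a polyamine oxidase, was nearest to GADD45B (0.84) and to CEBPB (0.76). For GADD45B, CHMP4B (0.83) and LOC100190249 (0.80) came next, and for CEBPB, DEPDC1 and ZNF346 (both 0.75). ARC had its nearest elements at lower values, B3GNT7 (0.79), ZNF804A (0.75) and BRI3BP (0.73). BTG1 was closest to LSM1 (0.93), an mRNA decay factor, GRPEL1 (0.93), a mitochondrial import factor, and EIF1 (0.91), a translation initiation factor. These are the highest of many values and are given as a description. For BTG1 the highest resident and the highest migrant were the libraries that stood apart, and its nearest elements were not ranked without them. Resident replicate 4 was also the highest resident for EGR1, CSRNP1, CEBPB and GADD45B, and no list was ranked without it. Between CEBPB and GADD45B themselves the centred r was 0.44 with all birds and -0.01 without that bird. Its part in the shared elements was not tested. Neither BTG1 nor ARC shared a nearest element with another of the 6 genes, whereas the lists of EGR1 and CSRNP1, of CSRNP1 and GADD45B, and of GADD45B and CEBPB had 1 element in common each.

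Other early response genes were read from the same fit. Of 8 listed genes (RHOB, TRIB1, NRN1, BCL6, SOCS2, CCND1, EDN1 and LIF), 7 were tested and 0 passed in either direction, and LIF, with at most 9 counts in any library, was too low to test. Their log2 fold changes ran from -0.32 to 0.30 with a median of 0.19. The highest belonged to BCL6, a transcriptional repressor, at 225.8 ± 24.8 CPM (SD, n = 7) in residents and 184.1 ± 26.1 CPM (SD, n = 6) in migrants (0.30 on the log2 scale with a standard error of 0.12). It did not pass edgeR's test (adjusted p = 0.996) and was the only 1 of the 7 with an unadjusted p under 0.05, a level that 4.45% of all elements reached. Elements with a low p more often carried a symbol, so the list cannot be judged against that share. The centred r of the 7 genes with EGR1 over the 13 birds ran from -0.16 for BCL6 to 0.72 for TRIB1, a pseudokinase. TRIB1 levels were 9.75 ± 5.66 CPM (SD, n = 7) in residents and 7.95 ± 2.16 CPM (SD, n = 6) in migrants. The highest TRIB1 level of any bird was 22.0 CPM, and r with EGR1 was not computed without resident replicate 4.

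Upstream of these genes, receptors and signal carriers, listed with the transcription factors MEF2D and NFATC2, were read in the same way. The list held 10 genes (GRIN1, GRIA2, GRM5, CALM2, HRAS, RASGRF1, GRB2, RAP1A, MEF2D and NFATC2) in 11 elements, since GRIA2 has 2. Of these 11, 0 passed in either direction, with a median log2 fold change of -0.05. RASGRF1, a calcium-dependent activator of Ras, had 51.4 ± 5.60 CPM (SD, n = 7) in residents and 39.7 ± 6.59 CPM (SD, n = 6) in migrants, or 0.37 on the log2 scale with a standard error of 0.13. It did not pass edgeR's test either (adjusted p = 0.996) and was the only 1 of the 11 with an unadjusted p under 0.05. The share of all elements was the same 4.45%, with the same limit from the symbols. The log2 fold changes of the list ran from -0.21 for CALM2, a calmodulin gene, to 0.37 for RASGRF1. The centred r of these elements with EGR1 ran from -0.38 to 0.37. Over the 20 cell type markers it ran from -0.42 for CD74 to 0.74 for PENK, with a median of 0.18. These values too were not computed without resident replicate 4. Of 29 classical immediate early genes listed, among them FOS, JUN and NR4A1, 0 had a symbol paired with an identifier in the table used here, and they were not analysed.

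The library measures were set beside the birds with high levels. Resident replicate 4 had the fewest counts of the residents (4308064), and the most HBAA, 6834 CPM, against 2169 to 4206 CPM in the other residents. Migrants 2 and 3, with the highest EGR1 and CSRNP1 among migrants, had HBAA at 3223 and 3840 CPM, the lowest of the migrants, and scores of -10.2 and -11.5 on the first principal component. Residents 2 and 6 had HBAA at 2948 and 3688 CPM, within the range of the residents with low EGR1. High EGR1 thus occurred beside the highest blood level of the residents and the lowest of the migrants, and the part of blood, depth and the first component in the levels of resident replicate 4 was not tested. The time of day and behaviour before capture were not analysed here for single birds.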

How the data were processed

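Hypothalamic RNA of 7 resident and 6 migrant male juncos was sequenced, 1 library per bird, starting with 200 ng RNA and using 12 PCR cycles. The deposited values are raw counts: read pairs that aligned uniquely to each annotated element. As the methods and the submitters' processing notes state, the authors used Trimmomatic 0.33 for trimming, STAR 2.5.3a for alignment to a draft junco assembly and, for counting, featureCounts (the notes name Subread 2.0.0, and also GSNAP). Whether counting used strand is not stated in the sources read, so overlapping genes on opposite strands cannot be separated, and unique counting loses reads shared by near-identical genes.

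The 6 genes and the lists were chosen with earlier results of these data known. Symbols came from the copy of the supplementary table used here, which names 1220 of 15363 elements. Nearly all elements with the lowest p between the populations carry a symbol there, and only a small part of the others do. The rule for other named genes took the 3 elements nearest to each gene, and list members with an unadjusted p under 0.05 or a centred r of at least 0.8 with EGR1; TRIB1, CALM2, LIF and the cell type markers given with values were named after their values were seen. One gene of the list of receptors and signal carriers is not reported here, and that list was summarised without it.

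Counts were tested with edgeR 4.0.16 (TMM, quasi-likelihood, R 4.3.3), residents against migrants with no covariate, over 9938 elements (5 or more counts in 6 or more libraries) and Benjamini-Hochberg adjustment at 0.05. DESeq2 1.42.0, the likelihood ratio test, RLE factors, other filters, a replicate block, and leaving out birds were the alternatives. A standard error is the absolute log2 fold change divided by the root of F. Spread was compared on log2(CPM + 1), with a pseudocount of 1, by exchanging deviations over all divisions of the birds, and differences in correlation by exchanging centred birds. Both p-values are approximate, since deviations are only roughly exchangeable. Correlations used all pairings within a population, and 100000 permutations within populations for the 13 centred birds. The counting coefficient of variation covers counting error only. The tests were checked on simulated data. All pairs of libraries within a population differed beyond sampling noise (lowest chi-square per gene 7.47). No sequences or coordinates are given, since no reference was used.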

Additional observations from a re-analysis of the deposited data

Results flagged for a closer look

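Among 14 groups of birds examined for a sample far from the rest, 5 had such a bird. By chance about 1 in 20 independent groups would, or 0.7 of these. The groups hold the same birds and are not independent, so the 5 cannot be judged against the 0.7. Resident replicate 4 was the highest resident for GADD45B, with a gap to the next bird of 0.799 of the range, and lay apart on the first principal component at 0.629. Migrant replicate 1 was the highest migrant for BTG1, at 0.741, and lay apart on the first principal component at 0.884. Migrant replicate 5 was the lowest migrant for CEBPB, at 0.628, with 18 counts. EGR1, for all its spread, had no single bird of this kind in either population, since its high levels were shared by 3 residents and by 2 migrants.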

How the results depend on the processing

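Elements with an adjusted p under 0.05 numbered 0 in each direction in the quasi-likelihood fit and under every alternative except DESeq2 (2 higher and 1 lower in residents) and the likelihood ratio test (2 and 1). With resident 4 and migrant 1 left out together, ARC had a log2 fold change of -0.11 and GADD45B one of -0.0469. Leaving out 1 bird gave ranges of -0.10 to 0.23 for ARC, -0.13 to 0.38 for GADD45B, 0.24 to 0.77 for EGR1, 0.03 to 0.27 for CSRNP1, 0.05 to 0.31 for CEBPB and -0.27 to -0.10 for BTG1. For spread, without those birds the difference was -0.20 for EGR1, -0.00338 for CEBPB and 0.12 for BTG1. Standard deviations gave -0.0941 for EGR1, -0.47 for ARC and 0.14 for GADD45B, and linear CPM gave 0.657 CPM for GADD45B. Without 1 bird the spread ran from -0.11 to 0.22 for EGR1, -0.41 to -0.20 for ARC, -0.0836 to 0.0390 for CSRNP1, 0.01 to 0.21 for CEBPB, -0.25 to 0.00825 for GADD45B and 0.03 to 0.13 for BTG1. The median r over the 15 pairs was 0.578 with library totals, 0.464 with Spearman's rho and 0.417 without replicate 4 in residents, and 0.387 with library totals in migrants, and ran from 0.417 to 0.757 in residents and from 0.0771 to 0.333 in migrants without 1 bird. In migrants, r of EGR1 and BTG1 was 0.25 with library totals, 0.43 with ranks, 0.30 without replicate 1 and 0.67 without the pair farthest from the median. That of CEBPB and BTG1 was -0.26, -0.00723 and -0.45 with ranks, without replicate 1 and without that pair, and that of EGR1 and CSRNP1 -0.45 without that pair. Without 1 migrant these 3 ran from -0.36 to 0.30, from -0.60 to 0.33 and from 0.72 to 0.96. The cause of these shifts was not tested. Replicate numbers did not pair the birds (correlations of same-numbered birds from -0.18 to 0.06). With the replicate block 0 elements passed, the log2 fold change of EGR1 was 0.61 and that of ARC 0.18, and 271 elements had an unadjusted p under 0.05 against 442. CEBPB, with 18 to 58 counts per bird, is the gene whose values depth limits most.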
